A study of Mus musculus with 388 samples.

Results

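The interferon response genes described here are 35 mouse genes, taken by symbol from a table of 25000 genes, and all 35 symbols were found. They comprise 4 interferon receptor chains, 7 transcription factors, 3 sensors of viral RNA, 16 antiviral effectors and regulators, 3 guanylate binding proteins and 2 immunoproteasome subunits. Their levels were read in 388 single bone marrow stromal cells, of which 386 were kept.

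Interferons are secreted proteins that warn neighbouring cells of infection. Type I interferons bind the receptor formed by Ifnar1 and Ifnar2, and interferon gamma binds the receptor formed by Ifngr1 and Ifngr2. Both receptors activate Janus kinases and STAT proteins. STAT complexes, joined after type I interferon by Irf9, then enter the nucleus and induce a large programme of antiviral genes, many of it through a promoter element called the interferon-stimulated response element (ISRE).

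All cells came from the bone marrow of 2-month-old C57BL/6 mice of the genotype KitMerCreMer; R26tdTomato. The mice carry a tamoxifen-dependent Cre recombinase in cells that express Kit, the receptor for stem cell factor, and a red reporter that Cre switches on for good. Tamoxifen had been given at E12.5 and E14.5 of fetal life, so Tomato+ cells descend from cells in which Cre was active around those days, and Tomato- cells are the unmarked remainder from animals treated alike. Both groups were sorted as PDGFRα+ and as negative for CD45, Ter119 and CD31, the surface marks of blood, red and endothelial cells.

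Cell titles place the cells in 2 orders and 8 sets. In order 1, Tomato+ cells formed sets P1 with 94, P2 with 5 and P3 with 38 kept cells, and Tomato- cells formed set N2 with 60. In order 2, Tomato+ sets P1 and P2 held 24 cells each, and Tomato- sets N1 and N2 held 71 and 70. The meaning of orders and sets is not stated, and no animal is named. Each Tomato group therefore counts as 1 sample, no test was made, and intervals cover counting error only.

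The median cell held 678586 counts, and kept cells held 18031 to 3833473. All 10 markers of Lepr-expressing marrow stroma had counts in every set, summing to 21333 to 72986 CPM (counts scaled to 1 common total per sum). The 5 cells of set P2 of order 1 had the lowest sum. Blood cell markers were uneven: the 12 myeloid markers summed to 4294 and 24233 CPM in sets N1 and N2 of order 2, and to between 8.26 and 145.9 CPM in the other sets. At least 5 counts of Ptprc or Pecam1, the genes of CD45 and CD31, were present in 21 Tomato- cells and 6 of 48 Tomato+ cells of order 2, and in 1 of 60 Tomato- and 7 Tomato+ cells of order 1. No index pair was shared by cells within order 1 (0 cells), and 0 columns were duplicates.

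Levels are CPM of the summed cells of a group or set. Tomato+ and Tomato- cells were compared by the log2 ratio of CPM + 1 within each order, and the mean over both orders is quoted where 1 value is given. A ratio on this scale understates the change of low genes. The size rule for a call had 3 parts: ratios of equal sign beyond 1.5-fold in both orders, a higher group that reached 20 CPM and had counts in 20% of its cells, and mean single-cell CPM that differed in the same direction.

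Across the Tomato groups, 3 interferon response genes passed this size rule. Isg20, an exonuclease that degrades viral RNA, was higher in Tomato+ cells. Ifih1, the cytoplasmic sensor MDA5 of long double-stranded RNA, and Gbp7, a guanylate binding protein of the defence against intracellular pathogens, were lower. Of the 35 genes, 25 passed the low-value filter in both orders, and 1 was called higher and 2 lower. Among the 5693 genes that passed the filter, 2.72% were called higher and 3.62% lower, so neither count of interferon response genes stood far from the background. The median over all 35 genes was −0.29 on the log2 scale, against −0.0077 over the 16143 genes with a count.

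The receptor genes had counts in all 8 sets. Compared per kilobase of exon, Ifngr1 was the most abundant receptor gene, with 113.1 to 168.7 CPM per kilobase over the 4 sums of group and order. Ifnar2 followed with 61.1 to 99.2, Ifngr2 with 16.9 to 47.9 and Ifnar1 with 9.60 to 14.8 CPM per kilobase. The ranges of neighbours in this order did not overlap. In order 1 Ifngr1 had 420 CPM in Tomato- and 480 CPM in Tomato+ cells. In order 2 it had 322 and 346 CPM. It had a count in 93.8% to 100% of cells. All 4 receptor genes passed the low-value filter and 0 were called between Tomato groups, with mean log2 ratios from −0.29 for Ifngr2 to 0.29 for Ifnar2. Set P2 of order 1 was the exception in level, with 10.6 CPM of Ifngr1 and 4.13 CPM of Ifnar2.

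**Figure D1:**
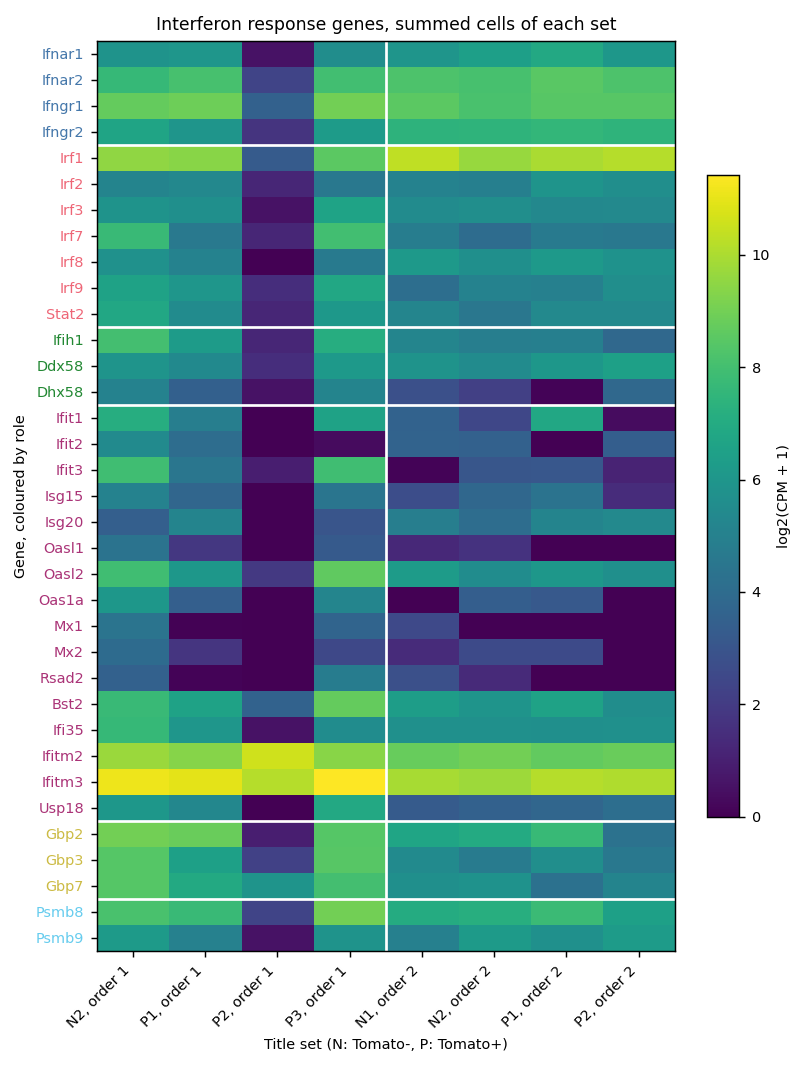
Levels of the 35 interferon response genes as log2(CPM + 1) in the summed cells of the 8 title sets, with gene names coloured by role and white lines between roles and orders. Ifitm3, Ifitm2 and Irf1 are bright in most sets, Ifitm3 reaching 2748 CPM in set P3 of order 1, while set P2 of order 1 is dark for nearly all genes but Ifitm2 and Ifitm3.

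Among the transcription factors, Irf1, which is induced mainly by interferon gamma and inflammatory signals, was the most abundant per kilobase, with 148.5 to 271 CPM per kilobase. Its CPM were 744 in Tomato- and 673, 8.72 and 367 in sets P1, P2 and P3 of Tomato+ cells of order 1. In order 2 they were 1286 and 813 in sets N1 and N2 and 1013 and 1129 in sets P1 and P2. Every set of order 1 lay below every set of order 2. Within order 2 both Tomato+ sets lay between the Tomato- sets.

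Irf7, the factor that amplifies type I interferon production, varied most among the factors. It stood at 215 CPM in set N2 and at 23.5, 1.38 and 250 CPM in sets P1, P2 and P3 of order 1. In order 2 all 4 sets lay between 15.6 and 27.7 CPM. Only N2 and P3 of order 1 were high, 1 set of each Tomato group. These sets also had the highest sums of the 6 pericyte and smooth muscle markers, 1167 CPM in N2 and 426 CPM in P3, against 3.21 to 86.1 CPM in the other sets. Their Lepr+ stroma markers summed to 39650 and 38522 CPM, below the 65919 CPM of P1 of order 1 and the 59164 to 72986 CPM of order 2. The part of these markers in the levels of Irf7 and of the other members high in N2 and P3 was not tested. The log2 ratio of Tomato+ over Tomato- cells was −1.51 in order 1 and 0.15 in order 2. Irf9 and Stat2, partners in the complex that acts after type I interferon, had ratios of −0.37 and −1.19 in order 1 and 0.69 and 0.50 in order 2. Irf3, which is activated after viral sensing without being induced, stayed within 39.3 to 96.5 CPM outside set P2 of order 1. Irf8, best known from myeloid cells, reached 70.6 CPM in set N1 of order 2, one of the sets with high myeloid markers, and 69.2 CPM in set P1 of order 2, where those markers summed to 36.6 CPM. Irf2, a competitor of Irf1, had a ratio of 0.78 in order 2 and of −0.01 in order 1. All 7 factors passed the filter and 0 were called.

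Of the RNA sensors, Ifih1 (chromosome 2, 62595798 to 62646255, minus strand, GRCm38) was called lower in Tomato+ cells. Its level was 257 CPM in set N2 and 76.97, 1.38 and 136.5 CPM in sets P1, P2 and P3 of order 1. In order 2 it was 35.6 and 28.8 CPM in sets N1 and N2 and 29.7 and 13.6 CPM in sets P1 and P2. Thus every Tomato+ set of order 1 lay below the Tomato- set, whereas in order 2 set P1 lay between both Tomato- sets. The summed Tomato+ cells of order 1 had 89.02 CPM (95% Poisson interval 87.3 to 90.8), the Tomato- cells 257 CPM (252 to 263). In order 2 Tomato+ cells had 20.5 CPM (18.96 to 22.2) and Tomato- cells 31.8 CPM (30.7 to 33.001).

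Log2 ratios of Ifih1 were −1.52 and −0.61, the second just past the 1.5-fold limit. The call was lost without set N1 or set P2 of order 2 (second ratio −0.47 and −0.10), without the cells with Ptprc or Pecam1 counts (−0.54), with a pseudocount of 5 CPM (−0.53) and with median-of-ratios scaling (−0.53). It was also lost with each group summed over both orders, at 74.1 CPM in Tomato+ and 90.8 CPM in Tomato- cells. Cells with at least 150000 counts were also thinned to that depth. Shallower cells were left out, 4 Tomato+ and 7 Tomato- cells of order 1, and 0 and 6 of order 2. Ifih1 was then seen in 42.1% of Tomato+ and 66.04% of Tomato- cells of order 1, and in 20.8% and 31.9% of order 2. Small counts were also set against the largest count of a gene in the cell's pool. In order 1 a pool was the cells with 1 library code, a code in the column names, and in order 2 it was a whole title set. What the codes stand for is not stated. With counts under 1% of the pool maximum at 0, the shares of order 1 were 34.3% and 31.7%, the other way round. The top cell alone accounted for 31.01% of the Tomato- counts in order 1.

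Ddx58, the sensor RIG-I of short RNA with a 5′ triphosphate, had ratios of −0.30 and 0.65 and lay within 42.2 to 89.98 CPM outside set P2 of order 1. Dhx58, the related regulator LGP2, was rare, with 4.56 to 32.4 CPM in the 4 sums of group and order, and did not pass the filter in both orders. The 2 abundant sensors thus had ratios of the same sign in order 1 and of opposite sign in order 2.

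The antiviral effectors spanned the widest range of levels. Ifitm3 and Ifitm2, membrane proteins that hinder virus entry, were the most abundant members per kilobase. Ifitm3 had 1333 to 3335 and Ifitm2 659 to 1286 CPM per kilobase over the 4 sums, and both had counts in 100% of kept cells. By set, Ifitm3 stood at 2261 CPM in N2 and 1958, 1130 and 2748 CPM in P1, P2 and P3 of order 1, and at 970, 851, 1154 and 1058 CPM in N1, N2, P1 and P2 of order 2. Its ratios between Tomato groups were −0.09 and 0.28. Ifitm2, Ifitm3 and other genes of this cluster are close relatives, and the sources used here do not say how reads that match several of them were counted.

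Bst2, the tether that holds budding viruses at the cell surface, was the next effector, with 75.8 to 239 CPM per kilobase. It had 216 CPM in N2 and 94.6, 11.02 and 424 CPM in P1, P2 and P3 of order 1, and 47.8 to 95.9 CPM in the sets of order 2. Again N2 and P3 of order 1 were the high sets by summed counts. The median N2 cell had 12.7 CPM of Bst2, below the 69.8 CPM of Tomato+ cells of order 1. In order 2 the median Tomato+ and Tomato- cells had 29.5 and 42.5 CPM. Oasl2, a relative of the 2′-5′ oligoadenylate synthetases, showed the same order of sums. It had 238 and 395 CPM in N2 and P3, 65.8 CPM in P1 and 45.5 to 77.1 CPM in order 2. Its median cell had 7.82 CPM in N2, above the 1.15 to 3.30 CPM of those other groups.

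Isg20 (chromosome 7, 78913424 to 78920396, plus strand, GRCm38) was the sole member called higher in Tomato+ cells. Its level was 9.91 CPM in set N2 and 35.2, 0 and 7.06 CPM in sets P1, P2 and P3 of order 1. In order 2 it was 28.5 and 16.1 CPM in N1 and N2 and 34.9 and 40.1 CPM in P1 and P2. Both Tomato+ sets of order 2 lay above both Tomato- sets, while in order 1 only P1 did so and P3 lay below N2. Summed Tomato+ cells of order 1 had 28.1 CPM (27.1 to 29.1) and Tomato- cells 9.91 CPM (8.87 to 11.1), against 37.8 CPM (35.7 to 40.1) and 21.6 CPM (20.6 to 22.5) in order 2.

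The log2 ratios of Isg20 were 1.41 and 0.78. Without set P1 of order 1 the first ratio became −0.54, and without set N2 of order 2 the second became 0.40. Isg20 also dropped out when counts under 1% of the largest count in the same library pool were set to 0. Its ratios were then 1.48 and 0.78, but the share of Tomato+ cells of order 1 with a count, 16.1%, was below the 20% of the rule. The share of cells with a count was 24.1% in Tomato+ and 30% in Tomato- cells of order 1, which runs against the CPM, and 45.8% and 34.8% in order 2. Thinned to 150000 counts, the shares of order 1 were 18.8% and 15.1%, those of order 2 35.4% and 30.4%. The interval of each of these shares overlapped that of the other group in the same order.

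Ifit3 and Ifit1 were far higher in some sets than in others. Ifit3, which binds other Ifit proteins on viral RNA, stood at 240 CPM in N2 and 21.1, 0.918 and 241 CPM in P1, P2 and P3 of order 1, against 0.0970 to 7.65 CPM in order 2. Part of its reads may belong to Ifit3b, a near-identical neighbour. Ifit1, which binds RNA lacking the cellular cap methylation, had 140 CPM in N2 and 28.6, 0 and 95.7 CPM in P1, P2 and P3 of order 1. It had 10.99, 4.41, 115.5 and 0.282 CPM in N1, N2, P1 and P2 of order 2. The high value of P1 of order 2 came from 1 cell, which held 99.2% of the Tomato+ counts of that order.

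Mx1, a dynamin-like restriction factor, Rsad2, the antiviral enzyme viperin, and Oasl1, a translational repressor of Irf7, had 0 counts in all 48 Tomato+ cells of order 2. A count of 0 there allows up to 0.0965 CPM. Among Tomato- cells of order 1, the same cell accounted for 99.9% of the Mx1, 99.4% of the Rsad2 and 87.97% of the Oasl1 counts. Their ratios, between −2.48 and −0.73, rest on 1 or a few cells.

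Isg15, a ubiquitin-like modifier, had 32.5 CPM in N2 and 12.8, 0 and 20.7 CPM in P1, P2 and P3 of order 1, and 1.75 to 19.6 CPM in order 2. Usp18, which removes Isg15 from proteins and dampens the type I receptor, reached 65.8 and 116.5 CPM in N2 and P3 of order 1 and 8.81 to 16.5 CPM in order 2. Oas1a, an activator of RNase L that may share reads with Oas1g, had 64.4 CPM in N2 and at most 35.8 CPM in any other set, but 1 cell of N2 held 46.8% of the counts there. Summed counts of Ifi35, a partner of Nmi, were high in N2 of order 1 alone. They gave 203 CPM there, against 45.8 to 63.6 CPM in the other sets outside P2 of order 1. The top cell held 27.7% of the Ifi35 counts of N2. The median N2 cell had 5.10 CPM, against 32.1 CPM in Tomato- cells of order 2. Median Tomato+ cells had 0.98 and 2.70 CPM in orders 1 and 2. Ifit2 and Mx2 also peaked in N2 of order 1, at 42.8 and 14.96 CPM. The N2 cell that led in Oas1a held 63.5% of the Usp18, 57.9% of the Mx2, 33.6% of the Ifit2 and 23.3% of the Ifi35 counts of N2. Of the 16 effectors, 7 passed the filter for both orders, and Isg20 was the 1 that was called.

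**Figure D2:**
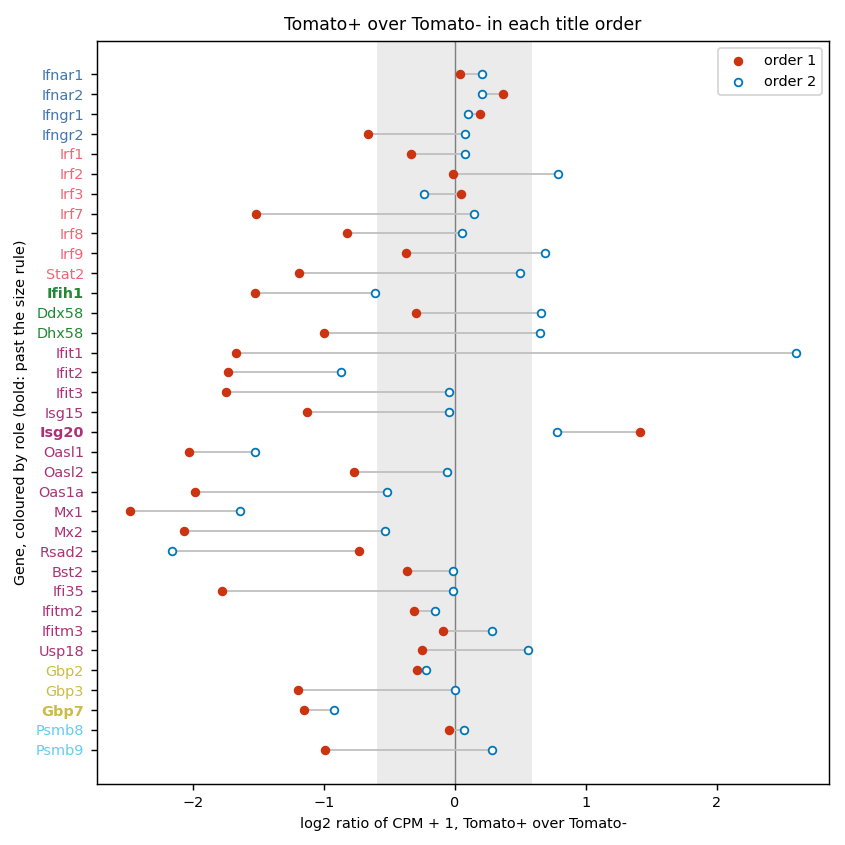
Log2 ratios of CPM + 1, Tomato+ over Tomato- cells, for the 35 genes in order 1 (filled) and order 2 (open), with the band of changes under 1.5-fold in grey and called genes in bold. In order 1 the ratios of 30 genes lie below 0, in order 2 those of 16, and Ifit1 lies at −1.67 and 2.61.

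Gbp7 (chromosome 3, 142530342 to 142550149, plus strand, GRCm38) was lower in Tomato+ cells in both orders. Its level was 337 CPM in N2 and 120.9, 59.2 and 260 CPM in P1, P2 and P3 of order 1. It was 50.6, 54.9, 17.99 and 34.8 CPM in N1, N2, P1 and P2 of order 2. Every Tomato+ set lay below every Tomato- set of its order. Summed Tomato+ cells of order 1 had 151.3 CPM (149.03 to 153.6) and Tomato- cells 337 CPM (331 to 343). In order 2 Tomato+ cells had 27.6 CPM (25.8 to 29.5) and Tomato- cells 52.98 CPM (51.5 to 54.5).

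Log2 ratios of Gbp7 were −1.15 and −0.92. It stayed called when both groups were compared within the library codes they share and within equally numbered sets (−1.52, −1.44 and −0.64), where Isg20 and Ifih1 did not. Without set P1 of order 1 the first ratio was −0.46 and the call was lost. It was also lost when each group was summed over both orders, at 124.3 CPM in Tomato+ and 127.2 CPM in Tomato- cells. Thinned to 150000 counts, Gbp7 was seen in 51.9% of Tomato+ and 69.8% of Tomato- cells of order 1, and in 22.9% and 30.4% in order 2. With counts under 1% of the pool maximum at 0, the shares were 29.9% and 38.3% in order 1 but 31.2% and 23.4% in order 2, where they run against the CPM.

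Gbp2, the most abundant of the 3 per kilobase with 39.6 to 203 CPM per kilobase, had ratios of −0.28 and −0.22. Its top cell held 49.2% of the Tomato+ counts in order 1 and 58.7% in order 2, and with every gene's top cell left out its mean ratio was −0.89 and it was called lower. Gbp3 had −1.19 and 0.00, with 337 CPM in N2 and 89.5 and 348 CPM in P1 and P3 of order 1. These genes lie in a cluster of close relatives on chromosome 3 and may share reads. The immunoproteasome subunits Psmb8 and Psmb9, which alter the peptides shown on MHC class I, had ratios of −0.04 and 0.07 and of −0.99 and 0.29, and 0 of the 2 were called. Psmb8 was found in 88.3% to 93.4% of cells.

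Ratios and levels differed between the orders. Within order 1, 1 interferon response gene was higher (Isg20) and 16 were lower in Tomato+ cells, of 31 past the filter of that order. Over all 6704 genes past that filter, 26.8% were higher and 24.9% lower. Within order 2, 5 were higher (Irf2, Irf9, Ddx58, Ifit1 and Isg20) and 2 lower (Ifih1 and Gbp7), of 25 past the filter, against 10.4% and 14.8% of 6568 genes. The median ratio of the 35 genes was −0.77 in order 1, against 0.12 over all measured genes, and 0.06 in order 2, against −0.10. The single Tomato- set of order 1 enters every ratio of that order.

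Levels were then compared between orders within each Tomato group, a comparison added after the set levels had been seen. With the same size rule applied in both groups, 13 of 27 genes past the filter were higher in order 1 and 1 was lower, against 15.6% and 12.2% of 6190 genes. The median log2 ratio of order 1 over order 2 was 1.14 for the 35 genes and −0.02 for all genes with a count. The 13 were Irf7, Irf9, Ifih1, Ifit3, Oasl2, Bst2, Ifitm2, Ifitm3, Usp18, Gbp2, Gbp3, Gbp7 and Psmb8. Their mean ratios ran from 0.73 for Ifitm2 to 4.71 for Ifit3. The gene that was lower was the receptor chain Ifngr2, at −1.49 in Tomato+ and −0.75 in Tomato- cells. Receptors as a group had a median of −0.45.

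Without set P3 of order 1, 8 genes were still called higher in order 1, and without the cells with Ptprc or Pecam1 counts 14 were. The share of all genes is not given for these counts. Orders also differed in other measures, whose part in the result was not tested. The median share of mitochondrial counts was 1.32% to 3.70% in the sets of order 1 and 0.642% to 0.787% in those of order 2. Myeloid markers were high in sets N1 and N2 of order 2. Sex-linked transcripts also differed between the sets of the orders, as given with sets P3 and P1 below.

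Within order 1, set P3 stood above set P1 although both are Tomato+. With 1.5-fold as the limit, 15 of 28 genes past the filter were higher in P3 and 3 were lower (Irf1, Irf2 and Isg20), against 29.7% and 32.9% of 6541 genes. The median log2 ratio was 0.82, against −0.14 over all genes with a count, and 0.43 with every gene's top cell left out. The largest ratios among the genes past the filter were those of Ifit3 at 3.46, Irf7 at 3.36 and Oasl2 at 2.57. The summed level of a core of 25 inducible members, all but the receptors, Irf1, Irf2, Irf3, Irf8, Ifitm2 and Ifitm3, was 3630 CPM in P3, 3634 CPM in N2, 1558 CPM in P1 and 91.8 CPM in P2 of order 1. In order 2 it was 830 CPM in N1, slightly less in N2, and 1150 and 692 CPM in P1 and P2.

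The P3 and P1 sets also differed in the sex-linked transcripts of their cells. In P3, 20 of 38 cells had at least 5 counts of Xist and none of 4 genes of the Y chromosome at that level in sum, and 1 had the reverse. In P1 these numbers were 0 and 59 of 94 cells. In set N2 of order 1 they were 19 and 9 of 60 cells, and in P2 of order 1 0 and 1 of 5. In order 2 they were 1 and 52 of 71 cells in N1 and 9 and 53 of 70 in N2. In P1 and P2 of order 2 they were 0 and 19 of 24 and 1 and 21 of 24 cells. Endothelial markers summed to 736 CPM in P3 and 33.2 CPM in P1, and the pericyte and stroma markers differed as given for Irf7. The median P3 cell had 3002 genes with a count before filtering and the median P1 cell 4524. The part of sex, depth or RNA of other cell types in the difference between P3 and P1 was not tested. Nor was the part of sex in the differences between orders and between Tomato groups.

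Among the library codes of order 1, 7 held both N2 and P1 cells, so that these sets can be set side by side within a code. The core sum was higher in N2 cells in 5 of 7 codes, for example 1912 against 1004 CPM in code D74 and 7467 against 1464 CPM in code D77. In code D76 it was 2731 against 4033 CPM, the other way round. These sums can rest on few cells. In D74 the median cell had 128.3 CPM of the core in N2 and 778.9 CPM in P1, and the highest N2 cell had 12752 CPM. The median N2 cell was also the lower in D76, F0000181 and F0000182. It was the higher in D77, at 4422 against 1092 CPM, and in D78 and D79. The N2 cells of D77 include the cell with the most core members, described below. No cells of P3 shared a code with N2 or P1.

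Single cells held the core unevenly. A core member was counted in a cell when it had at least 5 counts there. The median cell of a set had 3.5 to 6 of the 25 core members outside set P2 of order 1, where the median was 0. Set N2 of order 1 had the lowest median of the larger sets, 3.5, and also the highest cell, with 24 members. At least 10 members were present in 20% of N2 and 26.3% of P3 cells but 10.6% of P1 cells of order 1, and in 8.45%, 14.3%, 8.33% and 4.17% of cells of N1, N2, P1 and P2 of order 2. With cells thinned to 150000 counts and shallower cells left out, the set medians were 4 to 5.5 outside P2 of order 1. N2 of order 1 then kept 53 of 60 cells and P3 34 of 38, so these medians rest on fewer cells than those of the deposited counts.

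**Figure D3:**
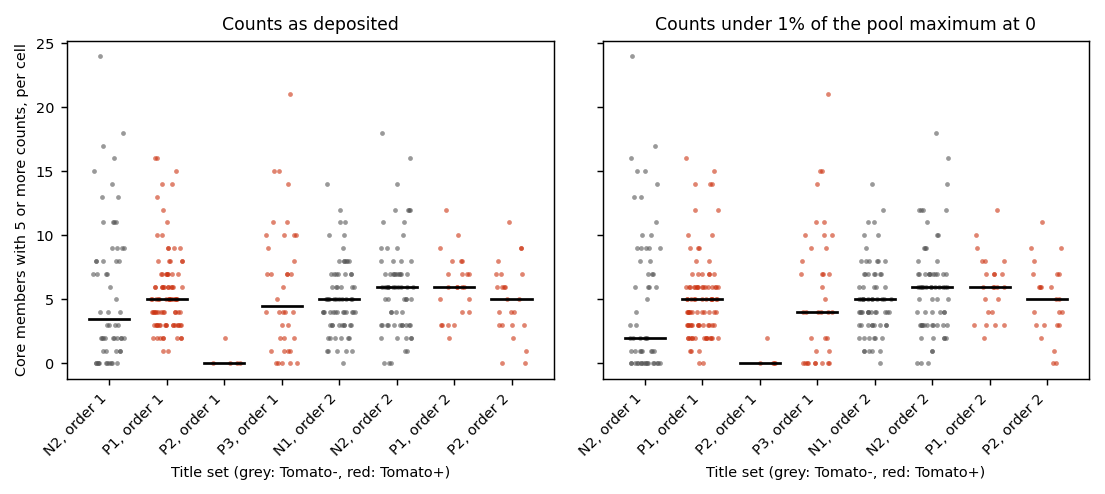
Number of the 25 core members with at least 5 counts in each kept cell, by title set, with set medians as black bars, for the deposited counts (left) and with counts under 1% of the pool maximum at 0 (right). Most cells lie at 0 to 10 members, 3 cells of different sets reach 24, 21 and 18, and the median of set N2 of order 1 falls from 3.5 to 2 on the right.

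The cell with the most core members was a Tomato- cell of set N2 of order 1, of library code D77, with 863291 counts. Of the core, 24 of 25 members had at least 5 counts, and Isg20 had 0. The core made up 27156 CPM of the cell. Ifit3 stood at 4020 CPM, Gbp2 at 3620, Irf7 at 2009 and Usp18 at 1590 CPM, where the median cell of the set had 2.997, 19.6, 1.19 and 0 CPM. By number of counts, the cell led its group and order in 12 core members. For Ifit1 and Isg15, which are among them, another cell had the higher CPM. Ifitm3 stood at 5342 CPM against a median of 1523 CPM, while Ifnar1, Irf3 and Irf8 had 4.63, 0 and 0 CPM.

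This cell carried 9 of 10 Lepr+ stroma markers at 5 or more counts, with Cxcl12, the main chemokine of marrow stroma, at 24864 CPM and Lepr at 3526 CPM. All 12 myeloid, 7 lymphoid and 8 endothelial markers had 0 counts. Setting counts under 1% of the pool maximum to 0 left its 24 members in place. The step could remove little here, since the cell held the largest count of its group and order in 12 core members. It is therefore no check on this cell. Code D77 was high in both of its sets. Its 9 N2 cells, with this cell among them, and its 12 P1 cells had medians of 11 and 8 members. After the 1% step these medians were 9 and 6. Without this cell the same 3 genes were called between Tomato groups, and the median of the 35 genes went from −0.29 to −0.14.

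The cell with the second most members was a Tomato+ cell of set P3 of order 1, with 21 members and 11626 CPM of the core. Ifit3 stood at 2943 CPM, Bst2 at 1212, Oasl2 at 1032 and Rsad2 at 505 CPM. It had Lepr at 6658 CPM and 0 counts of all myeloid and lymphoid markers. Erythroid markers summed to 449.7 CPM, with 4 of 6 at 5 or more counts, pericyte and smooth muscle markers to 126.5 CPM, with 2 of 6, and endothelial markers to 6.38 CPM, with 0 of 8. The third was a Tomato- cell of set N2 of order 2, with 18 members and 8445 CPM. It was led by Gbp2 at 3340 CPM, Gbp7 at 1473 and Psmb8 at 848 CPM, and Mx1, Mx2, Rsad2, Ifit1 and Irf7 had 0 counts. Its myeloid markers summed to 63.6 CPM, with 3 of 12 at 5 or more counts. Pericyte and smooth muscle markers of the third cell summed to 80.3 CPM and erythroid markers to 42.8 CPM, each with 1 of 6 at 5 or more counts. Its lymphoid and endothelial markers had 0 counts. Ifit1, Irf7, Mx1 and Rsad2 were thus high in the first and second cells and at 0 in the third. Gbp2, Gbp3 and Gbp7 were higher still in the first cell than in the third, and Psmb8 was higher in the third. All 3 had 0 counts of Isg20.

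**Figure D4:**
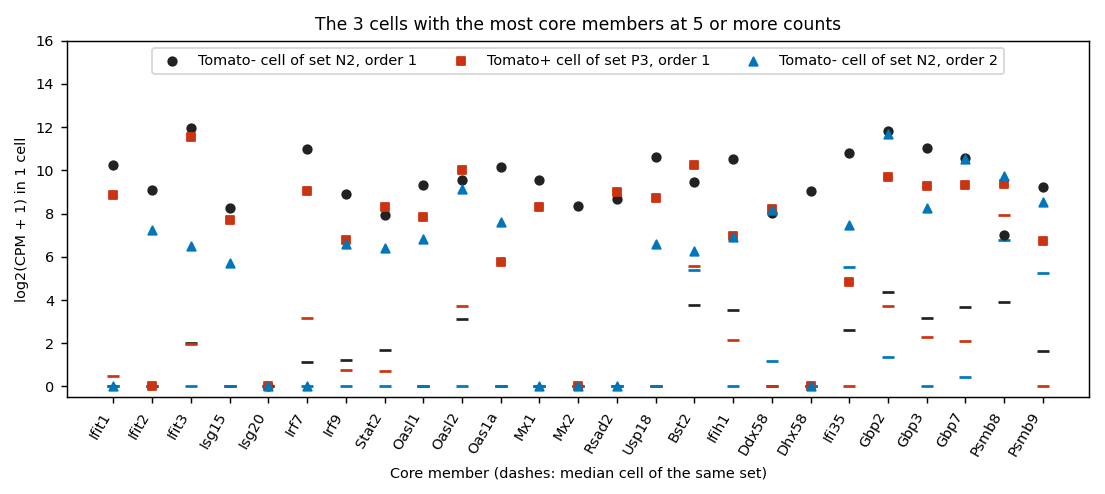
Level of each core member as log2(CPM + 1) in the 3 cells with the most core members, with a dash for the median cell of the same set. Most members of the first and second cell lie far above the dashes, Isg20 is at 0 in all 3 cells, and Irf7, Ifit1, Mx1 and Rsad2 are at 0 in the third.

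Across cells, members of the core moved together only loosely. The median Spearman correlation over the 300 core pairs was 0.14 over the kept cells of order 1 and 0.07 over those of order 2. Cells of order 1 share library codes, cells differ in depth, and values at 0 are common. The closest pair of order 1 was Bst2 and Psmb8 at 0.48, followed by Irf7 and Oasl2 at 0.43, and the closest of order 2 was Ifit3 and Isg15 at 0.40. Other genes were ranked by their rank correlation with the mean log2(CPM + 1) of the core members, taking the lower of the order values. The 3356 genes ranked had at least 5 counts in at least 20% of cells of each order. Highest were Irgm2 (0.40), Pdia4 (0.34), Iigp1 (0.32), Ly6e (0.31), Gm4070 (0.31), Slfn5 (0.31), Xaf1 (0.28), B2m (0.28), Phf11d (0.26) and Arhgap42 (0.24).

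The promoters of the members can be read beside these patterns. RefSeq promoters of the build GRCm38.p6 were found for 31 of the 35 genes, and the 250 bases before each start were searched. The ISRE was searched as 2 copies of GAAA with any 2 bases between them, or 2 copies of TTTC so spaced, which is the same motif on the other strand. It occurred before 12 of the 31 genes and in 3.46% of all 27025 genes with a promoter. Of the core, 10 of 21 had a match, among them all 3 guanylate binding proteins. The letters TTCNNNGAA, which read the same on both strands, stood for the gamma-activated site (GAS) bound by STAT dimers. They occurred before 10 of the 31 genes and in 8.13% of all genes. The 4 receptor genes had 0 ISRE matches.

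The last 150 bases before the start are shown for 7 genes, with ISRE matches in capitals. Ifit1, Isg15, Rsad2 and Bst2 stand for the effectors that were high in the first and second of those cells, Gbp3 and Gbp7 for the guanylate binding proteins, and Isg20 for the member that went the other way. They are read 5′ to 3′ on the strand of the gene.
Ifit1, chr19:34640739-34640888, plus strand: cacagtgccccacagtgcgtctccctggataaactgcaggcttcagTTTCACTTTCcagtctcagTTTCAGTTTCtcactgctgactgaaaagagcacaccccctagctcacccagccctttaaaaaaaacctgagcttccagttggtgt
Isg15, chr4:156200819-156200968, minus strand: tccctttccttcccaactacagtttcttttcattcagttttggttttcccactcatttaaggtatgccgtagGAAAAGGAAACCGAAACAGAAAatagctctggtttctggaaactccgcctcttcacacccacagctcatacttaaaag
Rsad2, chr12:26456453-26456602, minus strand: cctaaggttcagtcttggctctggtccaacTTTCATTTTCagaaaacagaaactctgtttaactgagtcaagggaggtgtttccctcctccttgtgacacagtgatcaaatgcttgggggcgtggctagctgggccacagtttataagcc
Bst2, chr8:71537473-71537622, minus strand: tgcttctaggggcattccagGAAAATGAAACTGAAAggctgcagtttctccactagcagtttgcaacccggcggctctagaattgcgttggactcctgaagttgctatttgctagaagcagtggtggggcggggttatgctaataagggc
Gbp3, chr3:142559894-142560043, plus strand: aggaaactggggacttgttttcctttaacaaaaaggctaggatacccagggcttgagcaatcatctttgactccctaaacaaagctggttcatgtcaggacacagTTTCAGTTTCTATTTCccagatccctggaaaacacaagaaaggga
Gbp7, chr3:142530186-142530335, plus strand: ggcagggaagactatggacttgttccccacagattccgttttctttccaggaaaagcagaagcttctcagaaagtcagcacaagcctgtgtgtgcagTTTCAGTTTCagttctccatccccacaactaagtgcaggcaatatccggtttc
Isg20, chr7:78913274-78913423, plus strand: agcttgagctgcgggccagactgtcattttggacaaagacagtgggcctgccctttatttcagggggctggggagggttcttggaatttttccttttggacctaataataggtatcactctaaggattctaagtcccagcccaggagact

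Isg15 had 3 overlapping ISRE matches, Ifit1 had 2 separate ones, and Bst2 and Gbp3 had 2 overlapping ones each. Isg20 had 0 ISRE matches before any of its 3 annotated starts and 1 GAS match before the first, which is the one printed. Gbp7 had 1 ISRE and 2 GAS matches. A match is a description of letters and does not show binding in these cells.

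**Figure D5:**
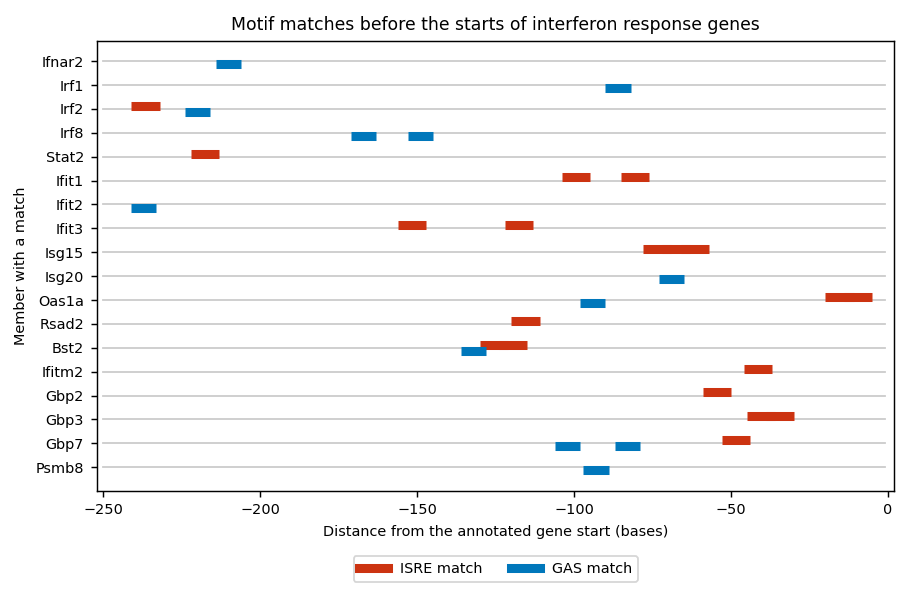
Positions of ISRE (red) and GAS (blue) matches in the 250 bases before the first annotated start of the members that have one, as distance from the start in bases. ISRE matches of Ifit1, Isg15, Gbp2, Gbp3 and Gbp7 lie nearer to the start than those of Irf2 and Stat2, and Isg20 has 1 GAS match and no ISRE match.

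Other genes of the pathway were read from a list of 63. Of these, 53 had a count, Mb21d1 was absent by symbol and 9 had 0 counts in all cells. Among the ligands, all 9 interferon genes but 1 were at 0, and the exception, Ifna2, had 68 counts in Tomato+ cells of order 1, or 0.610 CPM. The interferon-induced chemokine Cxcl10 had 769 CPM in Tomato+ and 521 CPM in Tomato- cells of order 1, of which the top cell held 55.2% and 54.8%. The median cells had 4.66 and 12.3 CPM. In order 2 the sums were 251 and 248 CPM. The kinases Jak1, Jak2 and Tyk2 had mean ratios of 0.21, 0.47 and −0.15.

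Of the 53 genes, 33 passed the filter, 0 were called higher and 6 lower in Tomato+ cells, at a background of 2.72% higher and 3.62% lower. The 6 belong to the 29 other induced genes of the list. They were the immunity-related GTPases Irgm1 (−1.99 and −0.99) and Igtp (−1.22 and −1.08), the guanylate binding protein Gbp6 (−1.24 and −1.52), Parp9 (−1.13 and −1.58), the nuclear body protein Sp100 (−1.37 and −0.76) and Ifitm1 (−0.62 and −1.02). Between orders, 17 of the 53 were higher in order 1 and 2 lower, against 15.6% and 12.2% of the 6190 genes past the filter of that comparison. How many of the 53 passed that filter is not given. The median ratio of the 29 induced genes between Tomato groups was −0.79, against −0.0077 over all genes with a count. Of the 29, 17 passed the filter. Low genes also enter this median, such as Oas2 and Oas3 with 8 and 0 counts in Tomato+ cells of order 1.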

How the data were processed

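Per the labels' protocols, single cells were lysed in detergent and their polyadenylated RNA was reverse transcribed and amplified, with no mention of molecular identifiers, so counts are reads after amplification. The authors deposited expected counts per gene, which may be fractions. GRCm38, StringTie 1.3.3b, HTSeq 0.6.0 and HISAT are named in the submitters' processing notes; their roles, the annotation and any use of strand are not stated.

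Counts were rounded. Cells under 1000 genes or 10000 counts were left out, and 386 of 388 stayed. Groups came from the labels and sets from the titles; 0 columns were unused. Sums carry exact Poisson and shares exact Clopper-Pearson 95% intervals for counting error only, and 3 counts are the limit that 0 counts allow. Genes were called by size, since cells are not replicates, and the calling step was tested on simulated data. Positions and exon lengths come from GENCODE M21, promoters from RefSeq. Every member is named. Values of 1 gene of the pathway list are not reported here. Alternatives changed the pseudocount, scaling, filters, fold, pooling, batches, cells and sets. No doublet caller was run. The members and lists were chosen with earlier results of these data known. Python 3.11.15, numpy 2.4.6, pandas 2.3.3, scipy 1.17.1 and matplotlib 3.10.9 were used.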

Additional observations from a re-analysis of the deposited data

Results flagged for a closer look

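Ifit1 moved in opposite directions in the 2 title orders. Its log2 ratio of Tomato+ over Tomato- cells was −1.67 in order 1 and 2.61 in order 2. The difference was not tested. In order 2, 1 Tomato+ cell held 99.2% of the counts. Among the members past the low-value filter in both orders, Ifit1 was the 1 with ratios past 1.5-fold in opposite directions. Dhx58, which did not pass it, had ratios of −0.999 and 0.649.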

How the results depend on the processing

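The mean ratios of Isg20, Ifih1 and Gbp7 kept their direction under the planned and added alternatives, although the order 1 ratio of Isg20 was −0.54 without set P1 of order 1. The count of members higher in Tomato+ cells was 1 as reported, beside 2.72% of all genes past the filter. The same share under each alternative is given in brackets. The count was 0 with a fold of 2 (0.316%) and 5 with all cells of a group summed over both orders (14.7%). It was 0 within batches that hold both groups (0.892%) and 0 with counts below 1% of the pool maximum removed (2.23%). The count of lower members was 2 as reported, beside 3.62% of all genes past the filter, and shares are again in brackets. The count was 1 with a pseudocount of 5 CPM (2.916%) and 1 with median-of-ratios scaling (3.504%). Without a low-value filter it was 6 (3.34% of all 25000 genes). It was 0 with a fold of 2 (0.9485%), 1 within batches (1.208%) and 1 without the cells with Ptprc or Pecam1 counts (3.22%). With groups summed over both orders 3 were lower (15.52%), namely Ifngr2, Irf8 and Ifi35, without Ifih1 and Gbp7. With every gene's top cell left out 3 were lower, with Gbp2 among them (3.138%). Leaving out 1 set at a time gave 0 to 5 higher members, beside 2.21% to 10.4% of all genes. It gave 1 to 2 lower members, beside 3.34% to 14.8%. Without N2 of order 1, which leaves 1 order, 5 were higher, beside 10.4%. The 15 members higher in P3 than in P1 became 9 with a fold of 2. The 13 higher in order 1 became 8 to 15 with 1 set left out, the 8 without P3 of order 1. The share of all genes is not given for these alternatives, so their counts stand without a background. The median over the members lay between −0.44 and 0.06. It was above 0 only without N2 of order 1. Median-of-ratios scaling moved the median of all genes past the filter by −0.05. The cause of these changes was not tested. The within-batch values set both groups side by side in shared library codes and equally numbered sets; replicate numbers in the labels pair no samples. The comparisons of orders and of P3 with P1, and the fit without the cell with the most core members, were chosen after seeing the data. Members near or under 20 CPM rest on few cells.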
